A study of Mus musculus with 6 samples.

Results

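Aldehyde dehydrogenases and the nitrosothiol-reducing alcohol dehydrogenase Adh5 were followed in the trigeminal ganglion of mice given NTG or vehicle. The 10 genes, out of 17524 in the deposited table, were chosen by name for their roles in aldehyde and organic nitrate metabolism: Aldh2, Aldh1a1, Aldh1b1, Aldh1l1, Aldh3a2, Aldh5a1, Aldh6a1, Aldh7a1, Aldh9a1 and Adh5. The trigeminal ganglion is the sensory ganglion of the face and the meninges. All animals were wild type, and the groups were vehicle (3 libraries) and NTG (3 libraries), profiled by bulk RNA sequencing. Dose, time after treatment and age were not given in the labels. The labels give only the abbreviation NTG, usually nitroglycerin in mouse models of migraine, an organic nitrate that releases nitric oxide. The labels do not say whether the libraries came from separate animals. The p-values therefore speak only of the spread among these 6 samples, and that spread may be technical.

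Aldehyde dehydrogenases oxidise reactive aldehydes to carboxylic acids with NAD or NADP, through a covalent intermediate on an active-site cysteine. ALDH2, the mitochondrial enzyme that clears acetaldehyde and lipid peroxidation aldehydes, also acts as a nitrate reductase that converts nitroglycerin to a dinitrate and nitrite, and is inactivated in the course of that reaction. The other family members divide the remaining aldehydes among them, such as retinal, long-chain fatty aldehydes and the semialdehydes formed in the breakdown of GABA, valine and lysine. ADH5 belongs to another family and removes S-nitrosoglutathione and the formaldehyde adduct of glutathione.

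The coding sequence around the catalytic cysteine is shown because the reaction with nitroglycerin takes place at this residue. Each window covers 36 bases of the GENCODE M21 coding sequence on GRCm38, read 5′ to 3′ on the strand of the gene, with every cysteine codon in capitals and the catalytic cysteine as the 8th codon. The windows lie at chr5:121572790-121572825 for Aldh2, chr4:45803403-45803438 for Aldh1b1, chr19:20630701-20630736 for Aldh1a1 and chr12:84436808-84436843 for Aldh6a1, each inside 1 exon.
Aldh2: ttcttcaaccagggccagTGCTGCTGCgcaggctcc
Aldh1b1: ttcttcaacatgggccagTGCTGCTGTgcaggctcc
Aldh1a1: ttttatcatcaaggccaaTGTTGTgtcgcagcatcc
Aldh6a1: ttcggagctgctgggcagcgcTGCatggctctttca
Aldh2 and Aldh1b1 each carry 3 cysteine codons in a row here, Aldh1a1 carries 2 and Aldh6a1 carries 1. Over the whole coding sequence, Aldh2 was 70.2% identical to Aldh1b1 and 66.3% identical to Aldh1a1. Adh5 has no match to the cysteine active-site pattern of the family.

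Features of the libraries that bear on these genes are given first. NTG replicate 1 held transcripts of hepatocytes, a cell type not expected in a ganglion. The 5 hepatocyte markers summed to 374 CPM (reads scaled to a common library total) there, against 0.69 to 2.23 CPM in the other 5 libraries. Alb, which encodes serum albumin, stood at 0 normalised reads in all 3 vehicle libraries and at 6291.9, 18.1 and 11.3 in NTG replicates 1 to 3. Because liver expresses many aldehyde and alcohol dehydrogenases strongly, results whose call it changes are also given without this library. Base composition differed too. For each library, the deviation of log2 expression from the gene's mean over the 6 libraries was set against transcript GC content. The slope lay between 0.11 and 0.19 per 10 percentage points in the vehicle libraries and between -0.21 and -0.08 in the NTG libraries. These slopes are relative to the other libraries only. Log2 fold changes after removal of each library's trend over GC content and transcript length therefore stand beside the results. The reads recovered from the deposited values summed to 18813027 to 23774244 per library over the genes of the table. All 10 genes passed the filter on low values. Summed markers of sensory neurons (13674 to 14507 CPM in vehicle, 14052 to 14402 CPM in NTG) were high in every library. Of these 10 neuronal markers, 3 rose and 3 fell in limma, and 2 rose and 3 fell without NTG replicate 1. Summed markers of satellite glia lay at 5949 to 6130 CPM in vehicle and 5562 to 5657 CPM in NTG, while of the 10 markers 3 rose and 3 fell in limma (median log2 fold change 0.04). Without NTG replicate 1, 2 of these glial markers rose and 3 fell. In bulk tissue, fewer cells of a type and less RNA per cell cannot be told apart.

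**Figure D1:**
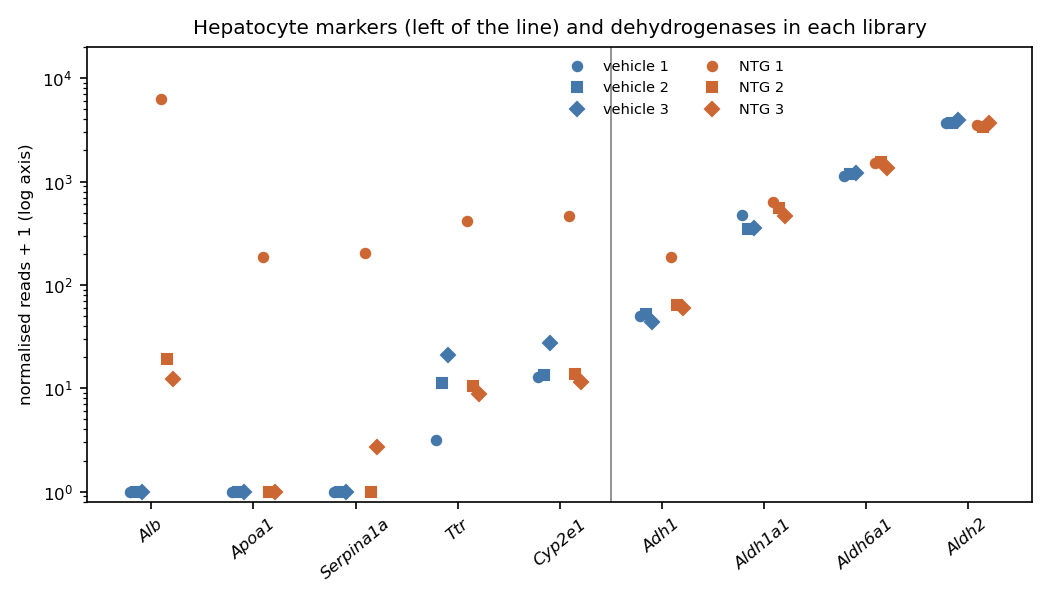
Normalised reads plus 1 (log axis) of 5 hepatocyte markers and of dehydrogenase genes in each of the 6 libraries, 1 point per library. All 5 markers were highest in NTG replicate 1, where Alb reached 6291.9 normalised reads.

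Of the 10 genes, 2 rose in NTG (Aldh1a1 and Aldh6a1) and 0 fell, and 8 did not pass the limma test at an adjusted p of 0.05 over all genes tested. At an unadjusted p under 0.05, 3 were higher and 1 was lower in limma, and edgeR's quasi-likelihood test, run on recovered reads, also called 2 higher and 0 lower (12.5% and 13.0% of all genes). Without NTG replicate 1, 1 of the 10 rose (Aldh6a1) and 0 fell in limma, against 8.36% and 9.33% of all genes tested. That fit called 17.7% of all genes in either direction, and 2 of the 10 were higher and 1 lower at an unadjusted p under 0.05. The shares of all genes called are at an adjusted p under 0.05, and none is given for the unadjusted counts. Across the table, 12.3% of genes rose and 13.5% fell, which makes 25.8% called in either direction, so 2 of 10 is near the background. The median log2 fold change of the 10 genes was 0.08, against 0.00 over all genes tested. In 1 gene all NTG libraries lay above all vehicle libraries, in 1 they lay below, and in 8 the groups overlapped. Such separation occurred in 39.7% of all genes tested, upwards in 19.7% and downwards in 20%.

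**Figure D2:**
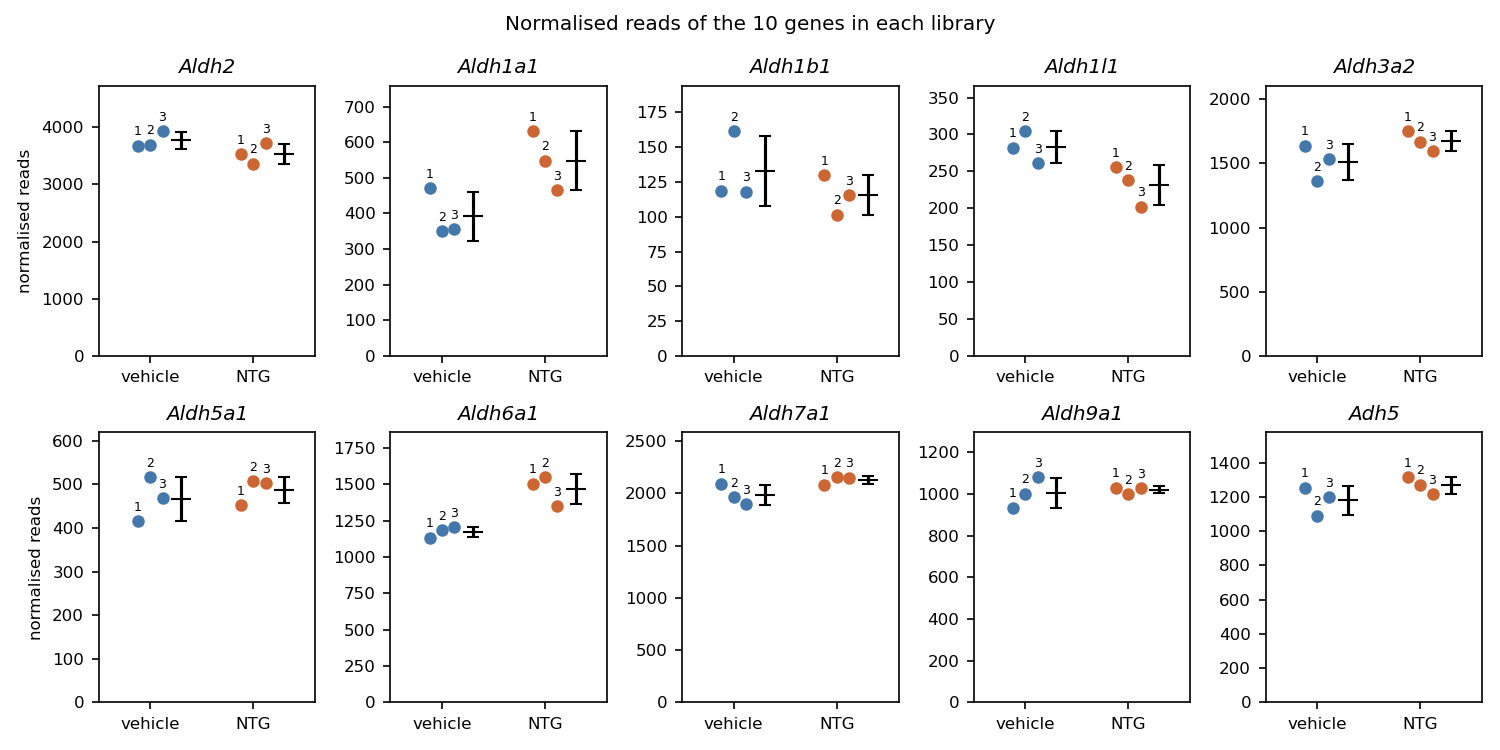
Normalised reads of the 10 genes in the 3 vehicle and 3 NTG libraries, 1 numbered point per library, with the mean and SD of each group beside them and each panel's axis from 0. The groups separated upwards in Aldh6a1 and downwards in Aldh1l1 and overlapped in the other 8.

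Aldh2, the gene of the enzyme that activates nitroglycerin, did not pass the test. It stood at 3673.3, 3695.1 and 3932.8 normalised reads in vehicle replicates 1 to 3 and at 3525.2, 3362.7 and 3718.6 in NTG replicates 1 to 3. The highest NTG library lay above the lowest pair of vehicle libraries, so the groups overlapped. The means were 3767 ± 144 and 3535 ± 178 (SD, n = 3 each), and the log2 fold change was -0.09 ± 0.06 (SE, adjusted p = 0.260 in limma). Its 95% confidence interval ran from -0.21 to 0.03 on the log2 scale, so a fall of more than 0.21 lies outside it. After removal of the GC content and length trends the sign turned (log2 fold change 0.04, adjusted p = 0.719 in limma). None of the 26 alternatives run put Aldh2 past the threshold, and its log2 fold changes under them lay between -0.13 and 0.07. On GRCm38 the gene lies at chr5:121566027-121593824 on the minus strand.

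Aldh1b1 encodes a mitochondrial enzyme that shares with ALDH2 the run of 3 cysteine codons shown above. Among the 8 aldehyde dehydrogenases whose window was read, Aldh7a1 not included, only this pair held it. Aldh1b1 was among the lowest of the set, with 118.8, 161.6 and 117.9 normalised reads in vehicle and 129.9, 101.3 and 115.3 in NTG. A single vehicle library stood above the other 5. The log2 fold change was -0.19 ± 0.18 (SE, adjusted p = 0.473 in limma), with an interval from -0.56 to 0.18 that is the widest of the 10. After removal of the GC content and length trends it was -0.04 (adjusted p = 0.936 in limma).

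Adh5, the S-nitrosoglutathione reductase and formaldehyde dehydrogenase, did not pass either. It stood at 1252.0, 1089.0 and 1197.5 normalised reads in vehicle and at 1312.6, 1271.3 and 1216.4 in NTG, and only the highest vehicle library overlapped the NTG range. The log2 fold change was 0.10 ± 0.07 (SE, interval -0.04 to 0.25, adjusted p = 0.307 in limma), and it was -0.00 after removal of the GC content and length trends (adjusted p = 0.983 in limma).

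Aldh1a1 encodes a cytosolic enzyme that oxidises retinal to retinoic acid and, in liver, is among the most abundant of the family. It stood at 470.7, 350.0 and 355.8 normalised reads in vehicle and at 631.7, 548.2 and 465.6 in NTG. NTG replicates 1 and 2 lay above every vehicle library, while NTG replicate 3 lay just below vehicle replicate 1. The means were 392 ± 68.1 and 548 ± 83.1 (SD, n = 3 each), a ratio of 1.40, and the log2 fold change was 0.49 ± 0.13 (SE, adjusted p = 0.00778 in limma). After removal of the GC content and length trends it was 0.34 ± 0.11 (adjusted p = 0.0474 in limma). NTG replicate 1, the library with hepatocyte transcripts, was the highest. Without it the log2 fold change was 0.38 and no longer passed (adjusted p = 0.0532 in limma), and with the trends removed as well it was 0.25 (adjusted p = 0.263 in limma). Without vehicle replicate 2 it was 0.41 (adjusted p = 0.0501 in limma). With the trends removed it passed only without vehicle replicate 1 or NTG replicate 3 among the 6 libraries left out. The part of the hepatocyte transcripts in this rise was not tested.

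Reads of Aldh1a1 can be shared with Aldh1a7, a close copy whose coding sequence was 91.6% identical over 1503 bases. Aldh1a7 was lower, at 61.0, 67.9 and 91.4 normalised reads in vehicle and 85.9, 85.3 and 77.2 in NTG, and its groups overlapped. Aldh1a1 lies at chr19:20492583-20643463 on the plus strand and overlaps E030003E18Rik on the same strand, which stood 25.6 times lower.

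Aldh6a1 encodes methylmalonate-semialdehyde dehydrogenase, the mitochondrial enzyme late in valine and thymine breakdown, and was the only one of the 10 with all NTG libraries above all vehicle libraries. It stood at 1132.2, 1182.7 and 1203.0 normalised reads in vehicle and at 1503.3, 1546.5 and 1348.2 in NTG. The means were 1173 ± 36.5 and 1466 ± 104 (SD, n = 3 each), a ratio of 1.25, and the log2 fold change was 0.32 ± 0.07 (SE, interval 0.17 to 0.47, adjusted p = 0.0020 in limma). It passed with each library left out in turn, and without NTG replicate 1 it was 0.30 (adjusted p = 0.0118 in limma). After removal of the GC content and length trends the log2 fold change was 0.10 ± 0.07 and did not pass (adjusted p = 0.411 in limma). Its transcript had the lowest GC content of the 10, at 43.0%.

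Aldh6a1 lies at chr12:84430717-84451024 on the minus strand. Bbof1 overlaps it on the opposite strand at a level 18.7 times lower, and stood at 69.2 ± 20.3 normalised reads in vehicle and 71.7 ± 13.2 in NTG (SD, n = 3 each; log2 fold change 0.07, adjusted p = 0.866 in limma).

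The promoters of both genes that rose are shown with the CCAAT motif in capitals, searched on both strands as CCAAT and ATTGG. Each covers 250 bases before to 50 after a RefSeq start site, 5′ to 3′ on the strand of the gene (GRCm38.p6), at chr12:84450975-84451274 for Aldh6a1 and at chr19:20601718-20602017 for an internal start of Aldh1a1.
Aldh6a1: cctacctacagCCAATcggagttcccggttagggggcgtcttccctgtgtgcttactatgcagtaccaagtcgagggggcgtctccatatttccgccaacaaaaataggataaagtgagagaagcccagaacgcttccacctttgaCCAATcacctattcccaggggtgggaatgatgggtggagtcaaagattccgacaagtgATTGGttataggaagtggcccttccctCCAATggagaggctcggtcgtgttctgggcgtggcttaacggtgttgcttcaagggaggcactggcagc
Aldh1a1: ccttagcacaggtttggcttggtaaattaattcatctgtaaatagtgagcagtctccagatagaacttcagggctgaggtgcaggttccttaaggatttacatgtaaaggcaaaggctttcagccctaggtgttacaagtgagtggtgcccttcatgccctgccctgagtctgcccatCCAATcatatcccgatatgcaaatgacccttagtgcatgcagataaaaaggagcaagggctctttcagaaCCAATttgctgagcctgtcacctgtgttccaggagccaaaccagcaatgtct
The Aldh6a1 promoter holds 4 matches, a number reached by 1.06% of the 32851 RefSeq mouse promoters of this length. The Aldh1a1 promoter holds 2, which 11.7% of promoters reach, and 37.4% hold at least 1. Neither window holds TATAAA (13.6% of promoters) or GGGCGG (35.7%), both searched on both strands, and the CCAAT matches do not overlap one another. Both genes have another entry. That of Aldh6a1, chr12:84448268-84448567, holds 2 CCAAT matches and neither of the other motifs. The Aldh1a1 window at the outer gene start, chr19:20492333-20492632, holds none of the 3. A match describes these letters only. Promoter entries were read for 8 of the 10 genes, Aldh2 and Aldh7a1 not being among them, and 7 of the 8 held CCAAT in at least 1 entry. Some of these genes have more than 1 entry, and the shares above count single entries. No share by gene is given, so this count has no background here.

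Aldh1l1 encodes formyltetrahydrofolate dehydrogenase, a folate enzyme that marks astrocytes in brain. It was the only one of the 10 with all NTG libraries below all vehicle libraries, at 282.2, 304.7 and 261.1 normalised reads in vehicle and 255.6, 237.8 and 202.0 in NTG. It did not pass after adjustment (log2 fold change -0.29 ± 0.13, SE, adjusted p = 0.0999 in limma), and after removal of the GC content and length trends it was -0.17 (adjusted p = 0.466 in limma).

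Aldh3a2 encodes the fatty aldehyde dehydrogenase of the endoplasmic reticulum. It stood at 1636.7, 1359.7 and 1530.1 normalised reads in vehicle and at 1751.6, 1668.0 and 1596.1 in NTG, where the lowest NTG library lay below the highest vehicle library. The log2 fold change was 0.15 ± 0.07 (SE, adjusted p = 0.133 in limma). It passed without vehicle replicate 1, the highest of its group, at 0.21 (adjusted p = 0.0424 in limma), and was 0.08 after removal of the GC content and length trends (adjusted p = 0.508 in limma).

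Other members act on semialdehydes or related products of amino acids. Aldh5a1 encodes succinate-semialdehyde dehydrogenase of the GABA shunt and stood at 415.2, 515.7 and 468.2 normalised reads in vehicle and 452.6, 507.7 and 502.0 in NTG, all NTG values inside the vehicle range (log2 fold change 0.07 ± 0.10, SE, adjusted p = 0.670 in limma; -0.03 and 0.901 after removal of the trends). Aldh9a1, whose enzyme forms the carnitine precursor butyrobetaine, stood at 933.9, 1000.5 and 1078.5 in vehicle and 1029.8, 999.3 and 1028.3 in NTG (log2 fold change 0.02 ± 0.07, SE, adjusted p = 0.852 in limma; 0.02 and 0.914 after removal of the trends). Its NTG libraries too lay inside the vehicle range.

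Aldh7a1 encodes the lysine-pathway enzyme antiquitin, which oxidises aminoadipate semialdehyde. It stood at 2092.2, 1962.9 and 1897.0 normalised reads in vehicle and 2084.7, 2152.2 and 2150.2 in NTG. One NTG library lay just below the highest vehicle library. The log2 fold change of 0.10 ± 0.06 did not pass (SE, adjusted p = 0.234 in limma). After removal of the GC content and length trends it was 0.18 ± 0.06 and passed (adjusted p = 0.0400 in limma), although among the 6 libraries left out in turn it then passed only without vehicle replicate 1 (limma adjusted p between 0.0332 and 0.187). Phax overlaps the gene on the opposite strand at a level 3.24 times lower, and stood at 618 ± 34.0 and 650 ± 20.5 normalised reads (SD, n = 3 each; log2 fold change 0.07, adjusted p = 0.554 in limma).

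Removal of the GC content and length trends brought 9 of the 10 log2 fold changes closer to 0, Aldh7a1 being the exception. After removal 2 of the 10 rose (Aldh1a1 and Aldh7a1) and 0 fell in limma. Of all genes tested, 3.90% rose and 5.52% fell at an adjusted p under 0.05 (9.42% in either direction). At an unadjusted p under 0.05, 2 of the 10 were higher and 0 lower, counts for which no share of all genes is given. Before removal, the 5 genes whose transcripts lay below the median GC content of the table (50.5%) all had log2 fold changes above 0, and 3 of the 5 above it had log2 fold changes below 0. Spearman's rho between GC content and log2 fold change was -0.867 over the 10 genes and -0.60 over 16275 genes tested. These genes were measured in the same 6 libraries, so the coefficients are a description of these libraries.

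**Figure D3:**
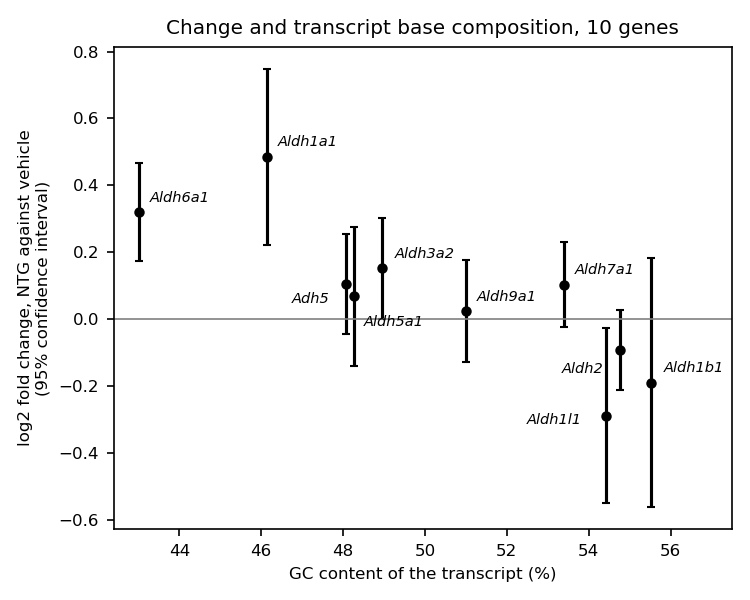
Log2 fold change between NTG and vehicle (points, with 95% confidence intervals from limma) against the GC content of the transcript for the 10 genes. Aldh6a1, at 43.0% GC, and Aldh1a1, at 46.1%, stand highest, and Aldh2, Aldh1l1 and Aldh1b1, at 54.4% to 55.5%, lie below 0.

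**Figure D4:**
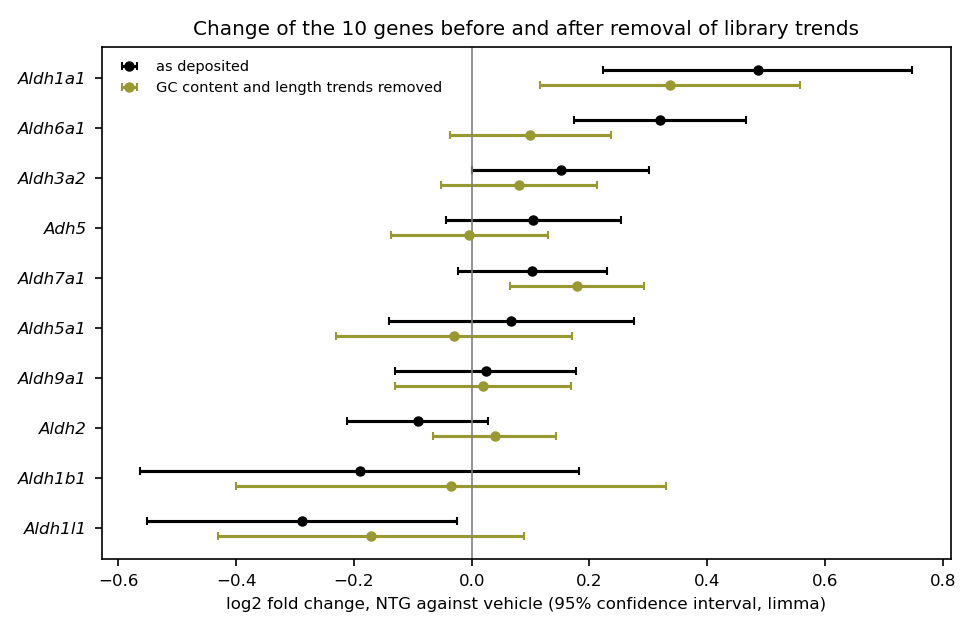
Log2 fold change of each gene (points, with 95% confidence intervals from limma) for the deposited values and after removal of each library's trend over GC content and transcript length. Aldh6a1 moved from 0.32 to 0.10 and Aldh7a1 from 0.10 to 0.18.

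Levels were compared between genes per kilobase of transcript. In vehicle, Aldh7a1 (1037 ± 51.9 normalised reads per kilobase, SD, n = 3) and Aldh2 (974 ± 37.2) stood highest, and their libraries overlapped. Adh5 followed at 735 ± 51.7 and Aldh3a2 at 522 ± 48.3. Aldh9a1 (354 ± 25.5) and Aldh6a1 (345 ± 10.7) overlapped in vehicle, whereas in NTG the level of Aldh6a1 was 431. Aldh1a1 stood at 166 ± 28.9, and the lowest were Aldh5a1 (82.6 ± 8.90), Aldh1l1 (67.7 ± 5.22) and Aldh1b1 (57.8 ± 10.9), of which the last pair overlapped. Per kilobase of coding sequence the vehicle order changed. Aldh2 (2419 ± 92.4) stood above Aldh7a1 (1227 ± 61.4), Aldh6a1 (731 ± 22.7) above Aldh9a1 (646 ± 46.6) and Aldh5a1 (297 ± 32.0) above Aldh1a1 (261 ± 45.3), the last pair with overlapping libraries. By the mean over all 6 libraries only Aldh2 and Aldh7a1 changed places and the other 8 genes kept their rank. Aldh2 made up 29.4% of the summed level of the 10 genes by coding length and 21.1% by transcript length.

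**Figure D5:**
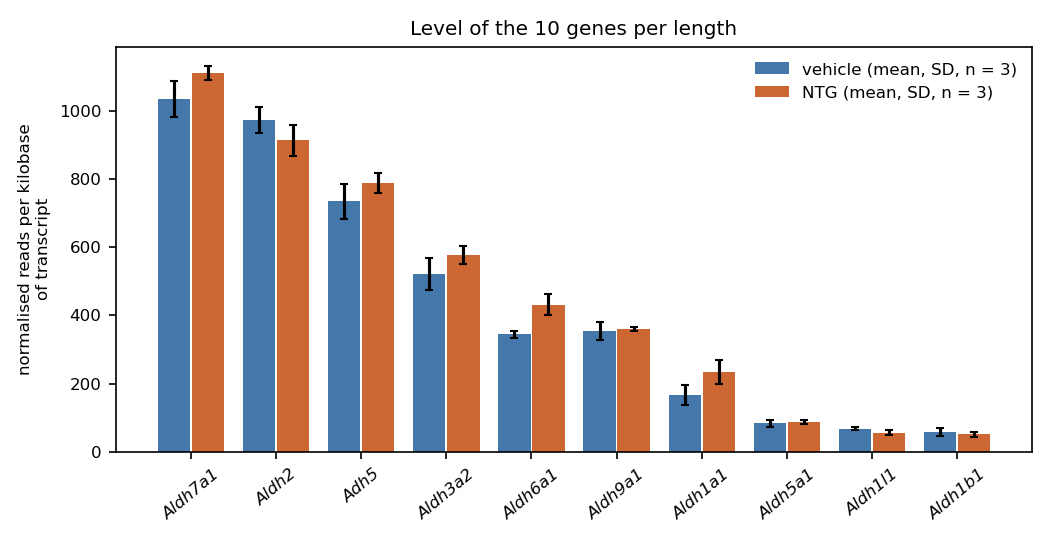
Normalised reads per kilobase of transcript for the 10 genes (bars, mean of 3 libraries per group; error bars, SD), ordered by their level. Aldh7a1 and Aldh2 lead, with 1037 and 974 in vehicle.

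The genes whose pattern over the 6 libraries was most like that of Aldh2 were Lats2 (Pearson's r = 0.996), Lamtor2 (0.990), Gm38887 (0.986), Trnau1ap (0.985) and Rps12 (0.984), picked as the top 5 of 15242 genes with a mean of at least 1 CPM. None of these 5 passed the test between groups (limma adjusted p between 0.123 and 0.239). With 6 libraries and so many genes, coefficients of this size are a description only.

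Of the other aldehyde dehydrogenases, 8 were tested, and 3 fell (Aldh4a1, Aldh1a2 and Aldh16a1) and 0 rose in limma. At an unadjusted p under 0.05, 0 were higher and 3 lower in limma, and edgeR called 0 higher and 2 lower. Beside this and the lists below stand the shares of all genes tested in limma, of which 12.3% rose and 13.5% fell at an adjusted p under 0.05. After removal of the GC content and length trends these shares were 3.90% and 5.52%. Aldh1a2, the retinal dehydrogenase of meninges and other mesenchyme, fell from 198 ± 13.1 to 142 ± 21.5 normalised reads (SD, n = 3 each; log2 fold change -0.49 ± 0.15, adjusted p = 0.0216 in limma). It stayed past the threshold after removal of the GC content and length trends (-0.51, adjusted p = 0.0287 in limma), and with all genes refitted it passed without vehicle replicate 3 and without NTG replicate 1. It did not pass without vehicle replicate 1, vehicle replicate 2, NTG replicate 2 or NTG replicate 3 (limma adjusted p between 0.0524 and 0.130). Markers of fibroblasts and meninges summed to 1342 to 1478 CPM in vehicle and 1098 to 1285 CPM in NTG. In limma 0 of the 8 rose and 4 fell, with 3 higher and 5 lower at an unadjusted p under 0.05. By edgeR 1 was called higher and 5 lower. The part of fibroblasts and meninges in the fall of Aldh1a2 was not tested. Aldh4a1, the proline-pathway enzyme, fell from 846 ± 45.0 to 709 ± 32.0 (log2 fold change -0.25, adjusted p = 0.0206 in limma), and Aldh16a1 from 354 ± 9.18 to 283 ± 39.0 (-0.33, 0.0436). These last falls did not pass after removal of the trends (adjusted p = 0.680 and 0.607 in limma), and without NTG replicate 1 only Aldh1a2 of the 3 passed. Aldh4a1 did not pass either without vehicle replicate 3 or NTG replicate 2, and Aldh16a1 passed only without NTG replicate 3 among the 6 libraries left out. With all libraries, Aldh16a1 did not pass in edgeR (adjusted p = 0.0556), DESeq2 (0.0677) or limma-voom (0.0543) on the recovered reads.

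None of the 3 other alcohol dehydrogenases tested passed in limma, with 1 higher and 0 lower at an unadjusted p under 0.05 and 1 called higher by edgeR. That gene is Adh1, the classical ethanol and retinol dehydrogenase of liver. It stood at 49.0, 51.5 and 43.0 normalised reads in vehicle and 184.4, 62.9 and 59.0 in NTG, so that all NTG libraries lay above the vehicle libraries and NTG replicate 1 stood far above the other 5. The log2 fold change of Adh1 was 0.87 ± 0.36 (SE, adjusted p = 0.0930 in limma) with all libraries and 0.35 without NTG replicate 1 (adjusted p = 0.462 in limma), and it passed without NTG replicate 3 (1.16, adjusted p = 0.0230 in limma). Adhfe1 (0.41, 0.210) and Adh7 (0.79, 0.543) did not pass either.

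Among 24 other enzymes that handle organic nitrates, nitrosothiols or formaldehyde, 2 rose and 2 fell in limma (median log2 fold change 0.06). At an unadjusted p under 0.05, 3 were higher and 4 lower in limma, and edgeR called 3 higher and 2 lower. After removal of the GC content and length trends 1 rose and 2 fell in limma, with 7 higher and 2 lower at an unadjusted p under 0.05. Mgst3, a microsomal glutathione transferase, fell from 1736 ± 26.3 to 1334 ± 90.8 normalised reads (SD, n = 3 each; log2 fold change -0.38 ± 0.07, adjusted p = 0.000315 in limma) and by as much after removal of the trends (-0.40, adjusted p = 0.000158 in limma). Cyb5r3, a cytochrome b5 reductase, fell from 6181 ± 169 to 5222 ± 124 (-0.24, adjusted p = 0.00139 in limma) and did not pass after removal (-0.09, 0.235). Esd, the esterase that takes up the product of ADH5 and releases formate and glutathione, rose from 1384 ± 98.8 to 1708 ± 21.7 (0.31, adjusted p = 0.00202 in limma), and passed after removal (0.20, 0.0351), although with a library also left out it passed only without vehicle replicate 3.

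Of 16 enzymes that produce aldehydes or reduce carbonyls, 3 rose and 3 fell (median 0.08), and without NTG replicate 1, 2 rose and 3 fell. Smox, the spermine oxidase, fell from 1703 ± 50.5 to 1269 ± 61.8 normalised reads (-0.42 on the log2 scale, adjusted p = 9.68e-05 in limma; -0.19 and 0.0399 after removal of the trends). With the trends removed and a library left out as well, Smox passed in 0 of 6 limma fits. Far1, which reduces fatty acyl-CoA to fatty alcohol, rose from 1636 ± 55.6 to 2146 ± 153 (0.39, adjusted p = 0.000218 in limma), and Maoa, a monoamine oxidase, from 811 ± 55.3 to 1017 ± 31.7 (0.33, adjusted p = 0.00298 in limma). Neither Far1 (0.00) nor Maoa (0.04) passed after removal (adjusted p = 0.986 and 0.794 in limma).

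In the pathway of Aldh6a1, 5 of the 16 genes of valine and propionate breakdown tested rose and 0 fell in limma (median 0.10), with 7 higher and 1 lower at an unadjusted p under 0.05 and 5 and 0 called by edgeR. At an adjusted p under 0.05, 12.3% of all genes tested rose and 13.5% fell in limma. Without NTG replicate 1, 4 rose (Dld, Mmut, Dbt and Acad8) and 0 fell in limma, with 5 higher and 0 lower at an unadjusted p under 0.05. In that fit 8.36% of all genes tested rose and 9.33% fell at an adjusted p under 0.05. Dld, the dihydrolipoamide dehydrogenase shared by several mitochondrial complexes, rose from 1946 ± 34.0 to 2558 ± 56.0 normalised reads (SD, n = 3 each; log2 fold change 0.39 ± 0.06, adjusted p = 6.35e-05 in limma). Mmut, the methylmalonyl-CoA mutase, rose from 796 ± 58.7 to 1026 ± 66.8 (0.37, adjusted p = 0.00189 in limma), and Dbt, a subunit of the branched-chain ketoacid dehydrogenase, from 455 ± 56.4 to 610 ± 8.78 (0.43, adjusted p = 0.00242 in limma). After removal of the trends 0 of the 16 rose and 0 fell in limma, with 2 higher and 1 lower at an unadjusted p under 0.05.

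Of 15 genes of retinoic acid synthesis, binding and breakdown, 0 rose and 3 fell in limma (median -0.11), against 12.3% and 13.5% of all genes tested. At an unadjusted p under 0.05, 1 was higher and 5 were lower in limma, and edgeR called 0 and 2. Rxrb (a retinoid X receptor; log2 fold change -0.32, adjusted p = 0.00180 in limma) and Rarg (a retinoic acid receptor; -0.23, 0.0463) were among those that fell. None of the 15 passed after removal of the trends, where 1 was higher and 1 lower at an unadjusted p under 0.05 in limma. Without NTG replicate 1, 1 of these genes fell. Rarg lost the threshold without NTG replicate 1, and also without NTG replicate 2, NTG replicate 3 or vehicle replicate 2.

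Of the 8 genes of the GABA shunt tested, beside Aldh5a1, 2 rose and 1 fell. Slc6a13, a GABA transporter of the meninges that is also among the markers of fibroblasts and meninges given above, fell from 431 ± 15.8 to 281 ± 20.9 normalised reads (log2 fold change -0.62 ± 0.11, adjusted p = 0.000230 in limma; -0.49 and 0.00269 after removal of the trends). Sucla2, a succinyl-CoA ligase subunit, rose (0.31, adjusted p = 0.000510 in limma), as did Abat, the GABA transaminase (0.20, 0.0426), and neither passed after removal of the trends, with Sucla2 at 0.09 (adjusted p = 0.327 in limma) and Abat at 0.16 (0.131). Abat passed only without vehicle replicate 1 or NTG replicate 3 among the 6 libraries left out.

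Around Aldh7a1, 1 of the 8 genes of lysine breakdown tested rose. Aass, the first enzyme of the saccharopine route, went from 38.2 ± 1.68 to 65.3 ± 8.80 normalised reads (log2 fold change 0.75 ± 0.25, adjusted p = 0.0294 in limma; 0.56 and 0.180 after removal of the trends), and without NTG replicate 1 no gene of this list passed in limma (1 higher and 0 lower at an unadjusted p under 0.05). Aass did not pass without NTG replicate 2 or 3 either (adjusted p = 0.0749 and 0.0611 in limma). Dhtkd1 (0.37, 0.153) and Gcdh (0.16, 0.215) did not pass.

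Around Aldh1l1, 1 of 16 genes of folate one-carbon metabolism rose. Mtr, methionine synthase, went from 760 ± 63.1 to 983 ± 54.4 normalised reads (log2 fold change 0.37, adjusted p = 0.00187 in limma; 0.20 and 0.0908 after removal of the trends). Mthfd2l was at -0.32 (adjusted p = 0.0735 in limma) and passed after removal at -0.53 (0.0106), and Fpgs was at -0.28 (0.0770). With the trends removed, Mthfd2l no longer passed without vehicle replicate 2, NTG replicate 1 or NTG replicate 2 (limma adjusted p between 0.0573 and 0.104). With the trends left in, it passed without vehicle replicate 1 or NTG replicate 3. Around Aldh9a1, neither gene of carnitine synthesis tested passed in limma, and neither had an unadjusted p under 0.05 or was called by edgeR (Bbox1, 0.83, 0.450; Slc22a5, 0.08, 0.561).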

How the data were processed

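The deposited table holds 1 value per gene and library, a signal that the authors made from gene counts divided by a size factor, as the values show: all were whole multiples of 1 read's worth (0.867 to 1.10) within a tolerance of 0.01, in 100% of values. Per the labels' protocols, RNA was enriched on poly-T beads and made into strand-specific paired-end libraries. FastQC, HISAT2 and GRCm38 are named in the submitters' processing notes. Which tool counted the reads, whether it used strand, and which annotation and normalization were applied is not given in the sources used here, so reads of overlapping genes may be shared. A floor of 3 reads equals 0.126 to 0.159 CPM, a limit for counting error alone.

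Groups and replicate numbers came from the sample labels. The 10 genes, the 10 gene lists and the 11 marker lists were chosen with earlier results of these data known. The test was limma-trend with robust empirical Bayes (two-sided) on log2(value + 1). It covered the 17475 genes that reached 1 normalised read in 3 or more libraries. P-values were adjusted over all of them by Benjamini-Hochberg, with a threshold of 0.05. Fold changes on this scale understate the change of low genes. Means ± SD are of the deposited values. Transcript GC content and length (GENCODE M21, GRCm38) were matched for 16323 genes (93.1%), and each library's smooth trend over both was removed with mgcv in an alternative fit of 16275 genes. Named genes were the 10 genes, up to 3 genes per list with the smallest unadjusted p, and the 5 most correlated with Aldh2 over the libraries. Not every gene that this rule chose is reported here. Adh1, Alb, Aldh1a7 and the overlapping genes were named beside them. Alternatives covered the pseudocount, filters, scaling (TMM, upper quartile, library total), edgeR, DESeq2 and limma-voom on the recovered reads, a minimum fold of 1.2, a replicate block, each library left out and GC removal. The combination of GC removal with each library left out was added after seeing the data. Within each group, libraries differed beyond sampling noise (4.10 to 7.99 as chi-square over its degrees of freedom), and each counted as 1 sample. Scripts were tested on simulated data. Versions were Python 3.11.15, mgcv 1.9.3, DESeq2 1.42.0, edgeR 4.0.16, limma 3.58.1 and R 4.3.3.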

Additional observations from a re-analysis of the deposited data

How the results depend on the processing

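With limma, 4512 genes passed over all genes tested, 47.6% of them higher in NTG. Against a minimum fold of 1.2 the count was 313 (24.6% higher), after removal of the GC content and length trends 1533, and after that removal with the replicate block 2116. With the replicate block alone it was 5254. Leaving out each library in turn gave 2946 (without NTG replicate 2) to 4678, and with the trends removed 1541, 956 and 1616 without vehicle replicates 1 to 3 and 1102, 688 and 1057 without NTG replicates 1 to 3. The number of the 10 genes called was 2, and was 0 against a minimum fold of 1.2 (limma, 1 at an unadjusted p under 0.05). With a library left out it lay between 1 and 3 (1 without vehicle replicate 2 and 1 without NTG replicate 1). With the trends also removed it was 2 without vehicle replicate 1, 1 without NTG replicate 3 and 0 in the other 4 fits. The numbers were not taken as pairs because the labels do not say that equal numbers share an animal, litter or day. Same-numbered libraries did not deviate together (correlations of 0.00465, -0.104 and 0.0349 over 15229 genes), which does not settle whether they were paired. The block called the same 2 of the 10 genes. The sign turned for 5 genes. With the trends removed, with or without the block, Aldh2 was at 0.039, Aldh5a1 at -0.030 and Adh5 at -0.0039. Without vehicle replicate 1 and the trends left in, Aldh5a1 was at -0.014 (to 0.14 without the others) and Aldh9a1 at -0.028 (to 0.076). With the trends removed and a library left out, Aldh2 turned in all 6 fits (0.016 to 0.075; 0.025, 0.0164, 0.075, 0.026, 0.074 and 0.0163 without vehicle replicates 1 to 3 and NTG replicates 1 to 3). Aldh1b1 turned without vehicle replicate 2 (0.11) and NTG replicate 2 (0.048), and Aldh9a1 without vehicle replicate 1 (-0.045). Aldh5a1 turned without vehicle replicates 1 and 3 (-0.11 and -0.016) and NTG replicates 2 and 3 (-0.057 and -0.063), and Adh5 without vehicle replicate 2 (-0.044) and NTG replicates 1 and 2 (-0.0042 and -0.020). The cause was not tested. Of 260 alternative values of the 10 genes, 216 kept their direction and side of the threshold, 16 lost and 4 gained the threshold, and 24 turned. At these depths the low genes, such as Aldh1b1, are the least precise.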

Other observations

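Among pairs of the 10 genes, Aldh3a2 and Adh5 varied most alike over the 6 libraries (Pearson's r = 0.997), and Aldh2 and Aldh1a1 most unlike (-0.769). Both pairs were picked after their values were seen, and the coefficients describe 6 libraries. Markers of skeletal muscle summed to 8.56, 12.03 and 16.79 CPM in the vehicle libraries and to 3.52, 3.48 and 3.41 CPM in the NTG libraries, and 7 of the 9 tested fell in limma (6 without NTG replicate 1). Aoc3, the vascular amine oxidase, named here after its values were seen, fell from 70.5 ± 9.96 to 34.4 ± 4.03 normalised reads (SD, n = 3 each; log2 fold change -1.01 ± 0.25, adjusted p = 0.00536 in limma; -0.94 and 0.0190 after removal of the GC content and length trends). Summed markers of mural cells, which are known to express it, lay at 202 to 220 CPM in vehicle and 215 to 216 CPM in NTG, and of the 6 markers 1 rose and 1 fell (median log2 fold change -0.15). Without NTG replicate 1, 1 of these markers rose and 0 fell in limma. The part of mural or other cells in the fall of Aoc3 was not tested.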
